A study of Arabidopsis thaliana with 6 samples.

Results

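The regions described here are the candidate SOC1-bound stretches of the Arabidopsis thaliana genome whose centre lay in a 3' untranslated region (3' UTR), the transcribed part of a gene after its stop codon. They were chosen by the authors' annotation of the centre, which had to name a 3' UTR and neither a 5' UTR nor coding sequence (CDS), and the rule used no read count. Of the 24032 listed regions 1373 met it. At 1333 of them every transcript annotated at the centre named a 3' UTR, and at 40 another transcript gave a further feature, such as an intron. The centre lay in 1 gene at 1323 regions and in 2 or more overlapping genes at 50. In all 1418 host genes were covered, and 9 of them held 2 regions.

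The counts come from chromatin immunoprecipitation followed by sequencing (ChIP-seq), which recovers the DNA that a protein occupies and counts it. Both groups were shoot apices of soc1-2 mutants, which lack normal SOC1 function. The tagged group carried SOC1p:gSOC1-GFP (line 7), a genomic SOC1 copy fused to GFP under the SOC1 promoter, and the control group carried SOC1p:gSOC1 (line 9), the same copy without GFP, so each genotype was 1 transgenic line. Plants of both groups had 15 short days followed by 3 long days and were collected at zeitgeber time 4 (4 hours after lights-on). An antibody against GFP was used, so the untagged libraries gave the background, with 3 libraries in each group. Nothing in the labels says that these came from separate plantings, so p-values measure the spread between these libraries, which may be technical.

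SOC1 belongs to the MADS-domain transcription factors and brings flowering forward when day length, plant age, temperature or gibberellin favour it. MADS-domain proteins bind DNA as dimers or tetramers, often at CArG boxes, and many of their sites lie in promoters. Arabidopsis genes are closely packed, so the 3' UTR of a gene can at the same time lie in the promoter of the next gene. For that reason each called region is given with the nearest flanking gene start that faces it, where there is one, and which of the genes, if any, the binding acts on was not tested.

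The tagged libraries held 663108, 183668 and 262776 reads in the listed regions for replicates 1, 2 and 3, and the untagged libraries held 396326, 41073 and 61963. The median 3' UTR region had 12, 5 and 8 reads in the tagged libraries and 5, 1 and 2 in the untagged libraries. The untagged library of replicate 2 had no read at 428 of the 1373 regions and that of replicate 3 had none at 298. At such counts a difference at a single region is often not detectable. Below, RPM stands for reads per 1000000 listed reads of the same library. Log2 enrichment is the difference between the tagged and the untagged library of the same replicate number after scaling to column totals, with a prior count of 1; the error beside its mean is the SD over the 3 pairs.

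As a class, the 3' UTR regions took overlapping shares of the listed reads in tagged and untagged chromatin. Such a share sets the class beside the other listed regions and does not measure its absolute enrichment. Of the reads in all listed regions they took 4.49%, 5.16% and 5.07% in tagged chromatin and 3.90%, 5.45% and 4.78% in untagged chromatin. The ranges overlapped, and the means, 4.91% ± 0.363 and 4.71% ± 0.775 (SD, n = 3), did not differ beyond their spread (exact two-sided permutation test, p = 0.7, where 0.1 is the smallest p that 3 against 3 libraries allow). The median region had a mean log2 enrichment of 0.29, beside 0.28 for all listed regions, and the quartiles were -0.19 and 0.91 beside -0.20 and 0.90. The mean was above 1 at 22.0% of the 3' UTR regions and at 21.7% of all regions, and above 2 at 3.71% and 3.57%.

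**Figure D1:**
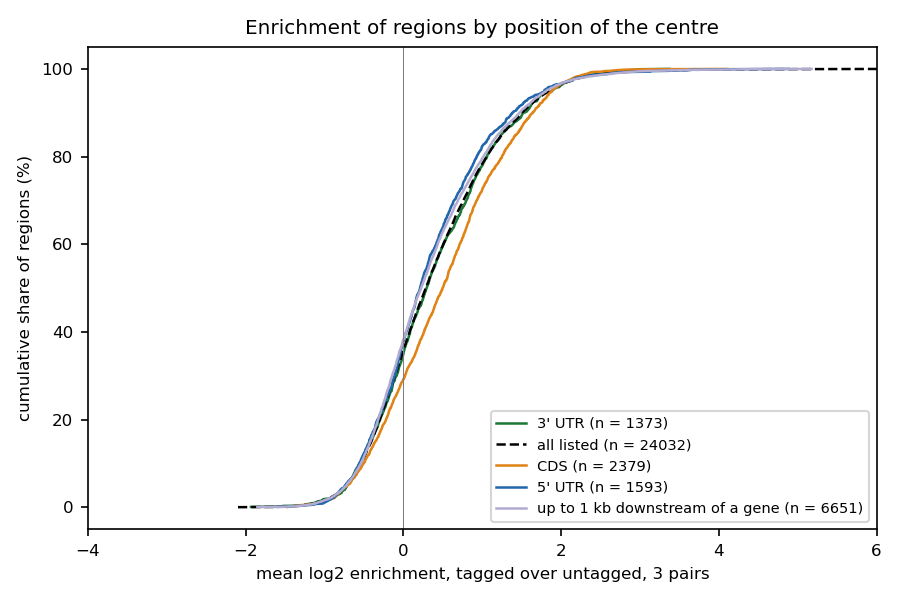
Cumulative share of regions (y axis, percent) against mean log2 enrichment over 3 replicate pairs (x axis), with 1 line for each position of the region's centre. The line of the 1373 3' UTR regions runs along that of all 24032 regions, with medians of 0.29 and 0.28, and the CDS line lies to the right, with a median of 0.50. CDS regions had fewer reads, a median of 21 over the 6 libraries beside 33 at 3' UTR regions.

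Regions at 3 other positions were set beside the class. The median log2 enrichment was 0.50 at regions centred in CDS, 0.21 at those centred in a 5' UTR and 0.22 at those just past gene ends, medians that were not tested against each other. CDS regions were also the shallowest, with a median of 21 reads over the 6 libraries. It was 33 at 3' UTR regions, 37 at 5' UTR regions and 48 past gene ends. With a prior count of 10 the median log2 enrichments were 0.07 in CDS, 0.04 in 3' UTR and 0.02 at both other positions. The part of read depth in these medians was not tested. The log2 ratio of the read share in 3' UTR regions to that in regions centred in CDS (2379 regions) was -0.25 ± 0.19 in the tagged and -0.30 ± 0.14 in the untagged libraries (SD, n = 3). Against regions centred in a 5' UTR (1593 regions) these ratios were -0.23 ± 0.16 and -0.22 ± 0.36. Against regions up to 1 kb past the end of a gene and in no gene (6651 regions) they were -2.66 ± 0.17 and -2.76 ± 0.32. The tagged minus untagged differences of 0.05, -0.01 and 0.10 were each within the spread between libraries (exact two-sided permutation tests without pairing, p = 0.7, 1 and 0.7, adjusted p = 1 for each over the 3 ratios). With the libraries set side by side by replicate number, the ratio to CDS was -0.04, -0.30 and -0.40 in the tagged and -0.14, -0.38 and -0.40 in the untagged libraries, lower in the untagged library in replicates 1 and 2 and the same in replicate 3. The ratio to 5' UTR regions was -0.05, -0.26 and -0.37 in the tagged and 0.13, -0.20 and -0.59 in the untagged libraries. That to regions past gene ends was -2.85, -2.57 and -2.55 in the tagged and -3.12, -2.50 and -2.66 in the untagged libraries. For neither of these ratios did all replicates go the same way.

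A small number of single 3' UTR regions did carry a strong signal. A region is referred to as called where the authors' false discovery rate (FDR) was below 0.05 in each replicate, a rate that set the tagged against the untagged library of that number. This held for 12 of the 1373 3' UTR regions (0.874%), beside 270 of all 24032 regions (1.12%), so the share of called regions was near the background. Called regions made up 0.252% of the CDS class, 1.07% of the 5' UTR class and 1.34% of the class just past gene ends, and these shares were not tested against each other. In replicates 1, 2 and 3 taken singly, 129, 26 and 45 of the 3' UTR regions passed (9.40%, 1.89% and 3.28%), beside 10.1%, 2.86% and 3.16% of all regions. At least 2 replicates were passed by 26 (1.89%), beside 2.62% of all regions. All 3 scaled tagged counts exceeded all 3 scaled untagged counts at 105 regions (7.65%), beside 8.34% of all regions, and the 12 called regions were among them.

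The quasi-likelihood test of edgeR, fitted on all 24032 regions with the replicate number as a block, gave an adjusted p below 0.05 at 10 of the 3' UTR regions (0.728%), beside 211 of all regions (0.878%), each of them higher in gSOC1-GFP. All 10 were among the 12 called by the authors' FDR, and the remaining 2 were the regions in ABCB2 (adjusted p = 0.0537) and AT1G30690 (adjusted p = 1). Without the block edgeR called 0 of the 3' UTR regions and 18 of all regions. An unadjusted p under 0.05 was found at 33 of the 1373 3' UTR regions without the block and at 31 with it. Both shares were below the 0.05 that the threshold passes without any signal. With TMM library sizes (a trimmed-mean scaling) in place of column totals and the block kept, the number called was 2, beside 91 of all regions. These 2 lay in CBF2 and AT4G35510. DESeq2 with the block called 5 of the 193 3' UTR regions that it gave an adjusted p, beside 121 of 5395 among all regions. Without replicate 1, the deepest in both groups, edgeR with the block called 2, the regions in AT3G15470 and CBF2, beside 50 of all regions.

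The 12 called regions had mean log2 enrichments from 1.19 to 3.37, with a median of 2.36, beside 2.39 for all 270 called regions. Summed over the 12, the tagged libraries had 2759, 1155 and 1066 reads and the untagged libraries 338, 36 and 62, which is 0.484% ± 0.126 and 0.091% ± 0.00794 of all listed reads (SD, n = 3). The shares of the tagged and untagged libraries did not overlap (exact two-sided permutation p = 0.1, the smallest that 3 against 3 allow), but the regions had been called on the same counts. Without them the other 1361 3' UTR regions took 4.42% ± 0.308 of the tagged and 4.62% ± 0.774 of the untagged reads (SD, n = 3).

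**Figure D2:**
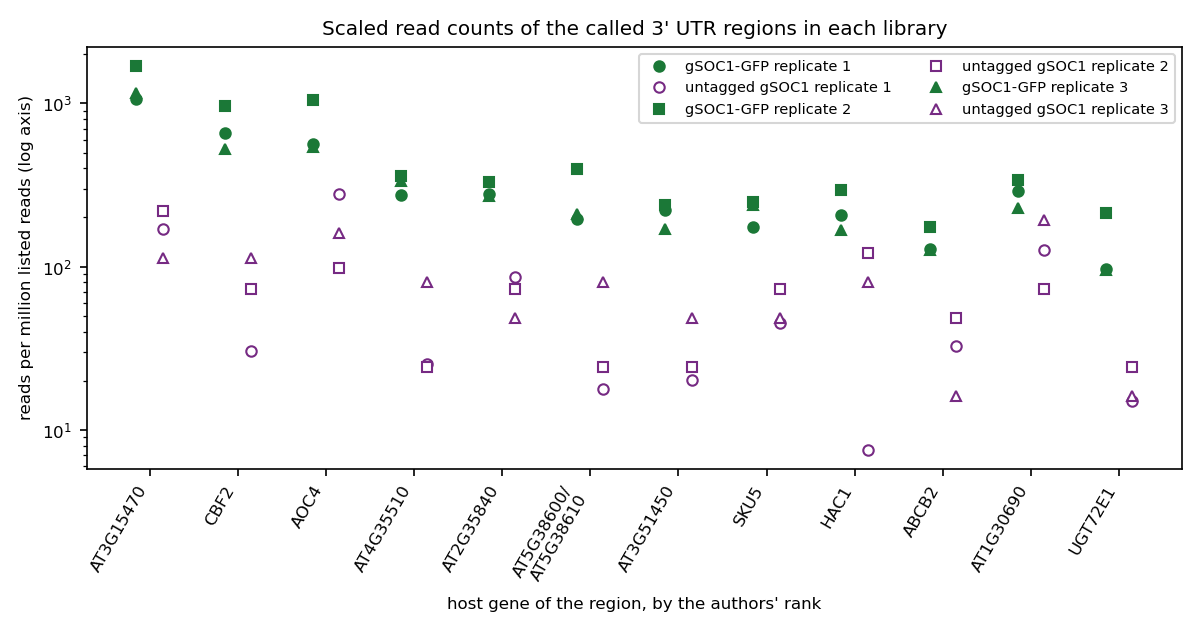
RPM (log axis) of the 12 called 3' UTR regions in each of the 6 libraries, filled for gSOC1-GFP and open for untagged gSOC1, ordered by the authors' rank. In every region the 3 tagged values lie above the 3 untagged values, and the gap is narrowest at AT1G30690, where the lowest tagged value is 228 and the highest untagged value 194.

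At a pair of called regions the start of a flanking gene lay inside the region itself. The best-ranked 3' UTR region, of rank 12 among all regions, lay in AT3G15470 on chromosome 3 from 5216237 to 5216566 (TAIR10). It had 706, 310 and 301 reads in the tagged libraries and 67, 9 and 7 in the untagged libraries, which is at least 1060 RPM in each tagged and at most 219 RPM in each untagged library. The groups were far apart in all 3 pairs, with log2 enrichments of 2.63, 2.92 and 3.30 (mean 2.95 ± 0.34, 7.73-fold; edgeR adjusted p = 5.83e-05). AT3G15470 lay on the minus strand, its annotated end was 140 bp from the region's centre, and AT3G15460, on the same strand, began there. The region, 330 bp long, therefore held the end of the one gene and the start of the other.

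The region in AT3G51450, of rank 111, lay on chromosome 3 from 19092285 to 19092574. The tagged libraries had 148, 44 and 45 reads there and the untagged libraries 8, 1 and 3. Its log2 enrichment was 2.70 ± 0.83 (SD, n = 3; edgeR adjusted p = 0.000263), and it was 3.25, 3.12 and 1.75 in the single pairs. The strand of AT3G51450 was not found, so whether the gene to the right lay beyond its end is not known. That gene, RHD4, a phosphoinositide phosphatase gene needed for normal root hairs, began 88 bp to the right of the centre, within the 290 bp of the region. Of the 1373 3' UTR regions, 68 held the start of a flanking gene in this way, with a median log2 enrichment of 0.03 and a mean above 1 at 23.5%. The 2 called ones were 2.94% of the 68, beside 0.874% of all 3' UTR regions. The 68 were also deeper, with a median of 63 reads over the 6 libraries beside 33 for the class. The part of read depth in this share was not tested.

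Another pair of called regions lay less than 1 kb upstream of a neighbouring gene without reaching it. HAC1 encodes a histone acetyltransferase of the p300/CBP family, and plants without it flower late. Its region of rank 137 (chromosome 1, 29716409 to 29716735) held 137, 54 and 44 tagged and 3, 5 and 5 untagged reads. The enrichment was uneven, 4.22 in pair 1 but 1.25 and 1.02 in pairs 2 and 3 (mean 2.16 ± 1.78, SD, n = 3; edgeR adjusted p = 0.00428). Without replicate 1 the mean was 1.13 and the adjusted p was 1. AT1G78995, on the strand of HAC1, began 460 bp away.

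ABCB2 encodes an ATP-binding cassette transporter of the P-glycoprotein type. The region over its 3' UTR, of rank 177 (chromosome 4, 13183454 to 13183755), had 85, 32 and 33 tagged and 13, 2 and 1 untagged reads. The 3 pairs gave 1.85, 1.76 and 2.70, and the groups did not overlap, with at least 126 RPM in the tagged and at most 48.7 RPM in the untagged libraries. PSD3, a phosphatidylserine decarboxylase gene of phospholipid synthesis, lay on the same strand and began 509 bp from the centre.

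In the next 3 called regions the neighbouring start was 1 to 3 kb away. The largest mean of the class, 3.37 ± 1.08 (SD, n = 3; 10.4-fold), was found in the 3' UTR of CBF2, an AP2-type activator of cold-induced genes. This region, of rank 29 on chromosome 4 from 13015228 to 13015547, had 439, 176 and 138 tagged and 12, 3 and 7 untagged reads. All tagged libraries had at least 525 RPM and no untagged library had more than 113 RPM. The edgeR adjusted p was 6.45e-07, and it stayed at or below 0.0197 when each replicate was left out. The centre was 111 bp before the end of CBF2, and ABCB28, a transporter gene on the same strand, began 1416 bp from the centre. It was also the one region among the 12 with another called region within 5 kb, which lay 2580 bp to the right with a log2 enrichment of 2.60 ± 0.11 (SD, n = 3). That one was in no gene, 1747 bp upstream of the start of CBF2 and 246 bp from the end of CBF3 (listed as DREB1A).

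UGT72E1 encodes a glucosyltransferase of phenylpropanoids, the compounds that include lignin precursors. Its region of rank 196 (chromosome 3, 18855163 to 18855485) had 64, 39 and 25 tagged and 6, 1 and 1 untagged reads, and the pairs were even at 2.41, 2.94 and 2.32 (edgeR adjusted p = 0.00895). AT3G50730 began 2186 bp away on the same strand. The region in AT1G30690, of rank 193 (chromosome 1, 10890081 to 10890460), was the weakest of the 12. It held 192, 62 and 60 tagged and 50, 3 and 12 untagged reads, with 1.17, 2.15 and 0.23 in the 3 pairs and a mean of 1.19 ± 0.96 (SD, n = 3). Its mean was 0.70 without replicate 2, and AT1G30700 began 2299 bp away.

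The remaining 5 called regions had no flanking gene start that faced them within 3 kb. AOC4 encodes an allene oxide cyclase, an enzyme of jasmonate synthesis. The region over its 3' UTR, of rank 52 (chromosome 1, 4548558 to 4548937), had 374, 192 and 143 tagged reads, and its untagged count in replicate 1 was also high, 110 beside 4 and 10 in replicates 2 and 3. The log2 enrichment was accordingly 1.01 in pair 1 and 3.38 and 1.73 in pairs 2 and 3 (mean 2.04 ± 1.21, SD, n = 3). The edgeR adjusted p of 0.0497 was close to the threshold, and the mean was 1.37 without replicate 2 (adjusted p = 0.883).

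SKU5 encodes a multicopper oxidase-like protein of the plasma membrane and cell wall that guides root growth. Its region of rank 124 (chromosome 4, 7349168 to 7349469) held 117, 46 and 63 tagged and 18, 3 and 3 untagged reads and had the smallest SD of the 12 (1.94 ± 0.25, n = 3; edgeR adjusted p = 0.0256). The centre was 51 bp before the end of SKU5, and the next start on that strand, of AT4G12410, was 5728 bp away. The edgeR call was lost whichever replicate was left out (adjusted p = 1, 0.0892 and 0.12 without replicates 1, 2 and 3).

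The region in AT4G35510, of rank 68 (chromosome 4, 16860429 to 16860795), had 182, 66 and 88 tagged against 10, 1 and 5 untagged reads, with a mean of 2.99 ± 0.88 (SD, n = 3; edgeR adjusted p = 4.15e-05). That in AT2G35840, of rank 97 (chromosome 2, 15056905 to 15057330), had 185, 61 and 71 tagged against 34, 3 and 3 untagged reads, with 2.06 ± 0.37 (SD, n = 3; edgeR adjusted p = 0.0195, and 0.549, 0.115 and 0.122 without replicates 1, 2 and 3). In both, the gene beyond the end of the host pointed toward it, with its own end 1008 bp and 2219 bp from the centre. The fifth region lay where AT5G38600 and AT5G38610 overlap, on chromosome 5 from 15460516 to 15460894. Tagged reads there were 130, 73 and 55 and untagged reads 7, 1 and 5, which gave a mean of 2.80 ± 1.30 (SD, n = 3; edgeR adjusted p = 0.000255), with the lowest value, 1.34, in pair 3.

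**Figure D3:**
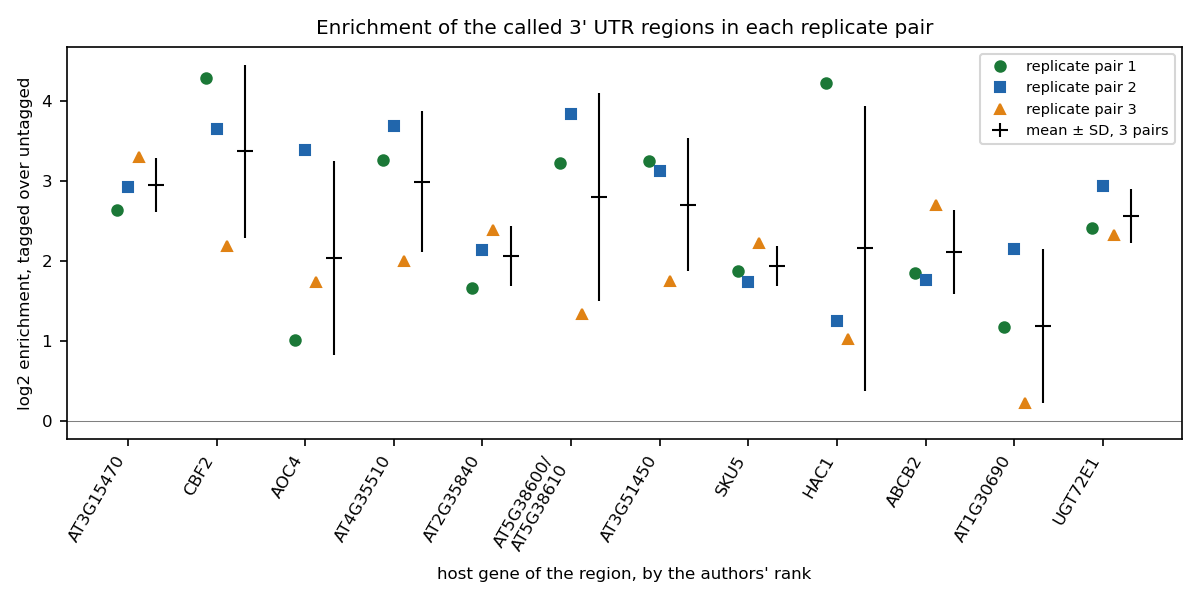
Log2 enrichment of the 12 called 3' UTR regions in each replicate pair (coloured points), with the mean and SD over 3 pairs in black. All points lie above 0, the pairs are closest at SKU5 (SD 0.25) and farthest apart at HAC1 (SD 1.78), where pair 1 stands at 4.22.

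Across the class, the orientation of the next gene was known where the table gave the strand of the host, at 1095 regions. The gene beyond the host's end was on the same strand at 583 and pointed toward the host at 511. Of the same-strand regions 503 lay within 3 kb of that gene's start, and 6 of these were called, those in AT3G15470, HAC1, ABCB2, CBF2, UGT72E1 and AT1G30690. Within 1 kb there were 314 regions, of which 3 were called. The share called was 1.19% within 3 kb and 0.955% within 1 kb, beside 0.822% of the 1095 and 0.874% of all 3' UTR regions. Of the 511 convergent regions 2 (0.391%) were called. The strand of 1 or more host genes was not found at 3 called regions. They lay in AOC4, in AT3G51450 and where AT5G38600 and AT5G38610 overlap. Median log2 enrichment was 0.25 at the same-strand regions and 0.44 at the convergent regions. The convergent regions also had fewer reads (a median of 29 against 38 over the 6 libraries). The part of read depth in these shares and medians was not tested. The median was 0.27 at the same-strand regions within 3 kb of the neighbouring start and 0.20 at the part of them within 1 kb, and a mean above 1 was found at 20.7% of either set.

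**Figure D4:**
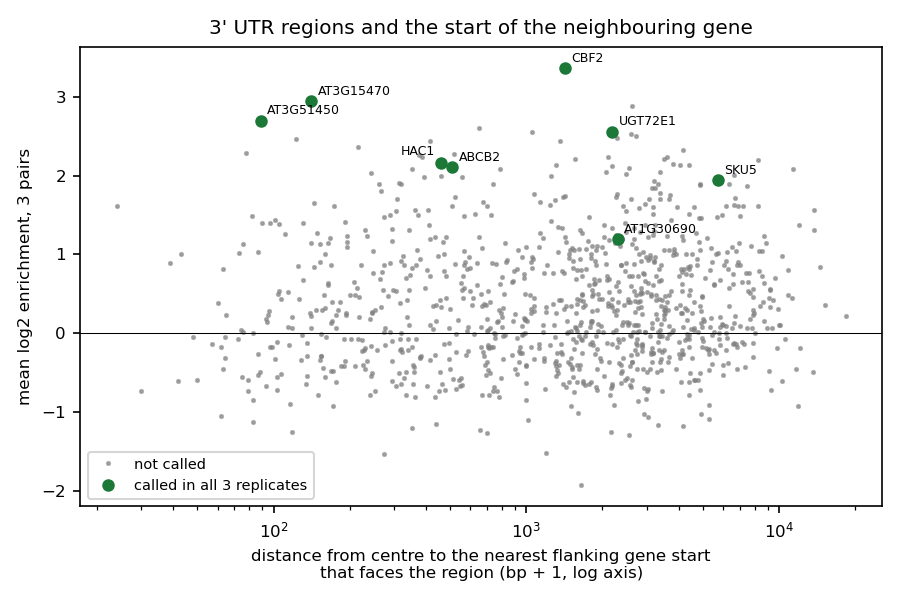
Mean log2 enrichment over 3 pairs against the distance from the region's centre to the nearest flanking gene start that faces it (bp + 1, log axis), for the 1041 3' UTR regions with such a start. The 8 called regions among them (green, named by host) span 88 to 5728 bp, and regions that were not called (grey) scatter around low values at every distance.

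The called regions were also the deep and long ones. All 12 called regions had at least 120 reads over the 6 libraries, a depth that 128 of the 3' UTR regions reached (9.32%), beside 14.3% of all regions. At that depth 9.38% of the 3' UTR regions were called, beside 7.24% of all regions with as many reads, and below it 0 of 1245 were. Of the 12, 11 were longer than 300 bp, a length that 227 of the 3' UTR regions exceeded (16.5%), beside 22.0% of all regions. Among regions of that length 4.85% of the 3' UTR regions and 4.08% of all regions were called. The reads of a region include its signal, so these shares describe the calls and are no independent check of them.

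**Figure D5:**
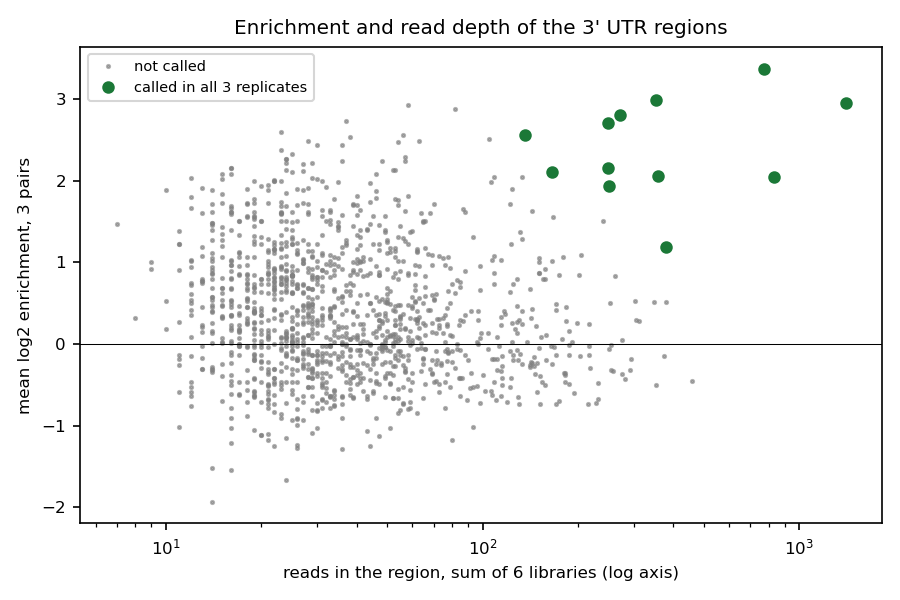
Mean log2 enrichment over 3 pairs against the reads of the region summed over the 6 libraries (log axis) for the 1373 3' UTR regions. The 12 called regions (green) lie at the right and above 1.1, and the other regions (grey) spread most widely below about 100 reads.

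Another 4 regions had an FDR below 0.1 in all replicates, and they are named here after their values were seen. They lay in AT3G06450, AT5G53500, AT1G77160 and AT5G44020, with log2 enrichments of 1.50 ± 1.01, 1.63 ± 1.03, 2.05 ± 0.33 and 1.06 ± 0.70 (SD, n = 3). None passed edgeR, with adjusted p-values of 0.197, 0.562, 0.173 and 1. In each of them the next gene on the host's strand began within 3 kb, at 288, 1236, 2064 and 368 bp, and for AT5G44020 that gene was CESA4, a cellulose synthase gene of the secondary cell wall. Together with the 6 above, 10 of the 16 regions at this FDR lay within 3 kb of a same-strand start, beside 503 of all 1373 regions (36.6%), and this share was not tested. In 14 regions exactly 2 replicates passed 0.05, with 8 missing it in replicate 2 and 6 in replicate 3, and their means ran from 0.43 to 2.51.

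Some 3' UTR regions had a large mean without a call. The region in CBF1, the neighbour of CBF2 and CBF3, had 55, 18 and 22 tagged against 7, 0 and 3 untagged reads. Its log2 enrichment was 2.51 ± 2.06 (SD, n = 3), its edgeR adjusted p was 0.304, and without replicate 2, where the untagged library had no read, the mean was 1.38. AT5G53360 had 33, 11 and 8 tagged against 6, 0 and 0 untagged reads, with a mean of 2.93 ± 1.31. STRS2, an RNA helicase gene of stress responses, had 13, 11 and 9 against 4, 0 and 0, and AT5G04440 had 13, 8 and 11 against 6, 0 and 0. With a prior count of 10 the values of AT5G53360, STRS2 and AT5G04440 were 0.99, 0.86 and 0.77, where AT3G15470 still had 2.71. At the other end, the lowest means among regions with at least 60 untagged reads were -0.74 ± 0.87 in MTO1, a methionine synthesis gene, -0.73 ± 1.04 in AT2G41835 and -0.74 ± 0.99 in AT1G69840. The groups overlapped in each of these 3 regions, and edgeR gave an adjusted p of 1.

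Of 167 flowering, cold, hormone, light and meristem genes in 9 lists, 18 had a region in their 3' UTR, and 1 of these, in CBF2, was called and passed edgeR. At a called share of 0.874% over the class, 18 regions are too few for the absence of other calls to say anything about these lists. No such region was listed in the 19 flowering repressors, the 13 floral organ identity genes or the 10 genes of the SPL family, which drives the change from juvenile to adult growth. The share of all genes with such a region was not worked out, so its absence from a list says nothing particular about that list. Of 16 floral integrators and meristem identity genes 1 had a region, FD, the bZIP partner of the florigen FT. It held 15, 7 and 15 tagged against 3, 1 and 2 untagged reads (0.85 ± 0.33, SD, n = 3; edgeR adjusted p = 1). Of 29 photoperiod, light and clock genes 7 had one, with a median log2 enrichment of 0.69 and no call. Their means were 1.49 in CDF3, 1.23 in PHYA, 1.22 in PRR7, 0.69 in CRY2, 0.30 in GI, -0.20 in FKF1 and -0.32 in LHY. At CDF3, PHYA, PRR7 and CRY2 at least 1 untagged library had no read, and their SDs ran from 0.83 to 3.10. The region in LHY, a clock gene expressed at dawn, had high counts in replicate 1 of both groups, 134 tagged and 123 untagged reads.

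The cold response list had 3 of 15 genes with such a region, namely CBF1, CBF2 and CBF3, which stand in tandem. Their log2 enrichments were 2.51, 3.37 and 1.18, a median of 2.51 beside 0.28 over all regions, with 1 called. This median is the value of CBF1, and that of the 3 genes was 1.58 without replicate 2 and 1.16 with a prior count of 10. The CBF3 region held 28, 6 and 13 tagged against 4, 1 and 1 untagged reads (edgeR adjusted p = 1). The called region in no gene described above for CBF2 ended at 13018220, and the CBF3 region began at 13018280. The CBF1 region had 3 called regions within 5 kb. How far such neighbours add to the counts of the CBF1 and CBF3 regions was not tested. Since the 3 genes share a strand, the CBF1 region also lay 2739 bp before the start of CBF3, and the CBF3 region lay 2125 bp before that of CBF2. The other lists had no call. In the auxin list 2 of 17 genes had a region, IAA7 and PIN7 (median 0.02), in the gibberellin list 3 of 24 (median 0.07) and in the shoot meristem list 2 of 24, AS1 and KAN1 (median 0.67). Medians over so few shallow regions are unsteady, and that of the photoperiod list was 0.24 without replicate 3 and 0.11 with a prior count of 10. As the next gene on the strand within 3 kb, 4 list members faced a 3' UTR region, CBF2 and CBF3 as above and the gibberellin synthesis genes GA3 and KAO1 (listed as CYP88A3), with 0 calls.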

How the data were processed

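For each region the deposited table held, per the file headers, the unnormalized read count of each library in each region, the authors' FDR (a Benjamini-Hochberg p-value per replicate) and the authors' rank score over the replicates. Coordinates are on TAIR10, the build named in the submitters' processing notes. No aligner, region caller or test of the authors is named in the sources used here. Region starts are the deposited ones, counted from 0 or 1 without a statement of which, and ends were computed from start and length. The deposited distances run from a region's centre to the closest gene on each side, and host strands and ends were read from rows where the host was such a flanking gene. Symbols were looked up in RefSeq's gene table, which held 1406 of the 1418 hosts and was used for names only. Sequences were not used here.

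Counts were tested with edgeR 4.0.16 (quasi-likelihood, R 4.3.3; DESeq2 1.42.0 as an alternative) on all 24032 regions, with library sizes from column totals. The test was also run on simulated counts with planted changes. Their means were set per replicate pair, so that run cannot judge the choice of the block. The replicate number was a block, because the deposited FDR columns set same-numbered libraries against each other. Deviations from group means correlated at 0.584, 0.174 and 0.143 within numbers 1, 2 and 3, above the bound of 0.1, although replicates 2 and 3 also reached 0.136 and 0.125 across numbers. A planned CArG box search was not run. Members, lists, tests and the block were chosen with earlier results of these data known. Named regions were all called or edgeR-passing members, the 10 of best rank, the 10 largest means among members with at least 30 reads and all pairs above 0, and the 3 lowest with at least 60 untagged reads.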

Additional observations from a re-analysis of the deposited data

How the results depend on the processing

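Calls in at least 2 replicates and TMM without the block were chosen after seeing the data. Unless a reason is given, the cause was not tested. The 12 called regions became 9 at an FDR of 0.01, 16 at 0.1 and 26 with at least 2 replicates, and 12 to 20 when a replicate was left out (20 without replicate 2), which asks for fewer replicates by construction. The 10 regions past edgeR became 0 with no replicate block (18 of all regions) and 0 with TMM and no replicate block (0 of all regions). In that last setting 34 of the 1373 had an unadjusted p under 0.05, beside 31 in the main setting and 26 with TMM and the block. Each of these shares was below the threshold itself. The number past edgeR was 2 with TMM library sizes and the block (91 of all regions). DESeq2 called 5 of the 193 members it gave an adjusted p, beside 121 of 5395 among all regions. With a filter on low counts it was 12 of 337, beside 255 of 8130 among all regions. Without each replicate the number ran from 2 (without replicate 1) to 9, beside 50 to 215 of all regions. All 5 of DESeq2, and both with TMM, were among the 10. TMM moved the median of all regions from 0.28 to 0.31, but from 0.30 to -0.05 in pair 1 and from 0.14 to 0.46 in pair 2. The median log2 enrichment of the class was 0.04 with a prior count of 10, which pulls shallow regions to 0 by construction. Without the called regions the tagged minus untagged difference in read share turned from 0.196 to -0.196 percentage points, and the ratios to CDS and downstream regions turned to -0.07 and -0.02; these regions had been chosen for higher tagged counts, so leaving them out lowers the tagged side by construction. The difference from 5' UTR regions, -0.01, ranged from -0.12 to 0.08 without each replicate. No such difference could pass a test at 0.05, since 0.1 is the smallest p of 3 against 3 libraries. The 6 called regions within 3 kb of a same-strand start were 3 within 1 kb and 10 at an FDR of 0.1. For the 19 named regions, 89 of 95 alternative values stayed within 1 SD, 6 were lower with a prior count of 10, and 0 changed sign. Leaving out 1 of 3 pairs cannot move their mean by 1 SD, so that outcome was fixed in advance for the values without a replicate. Within that bound HAC1 fell from 2.16 to 1.13 without replicate 1, and CBF1 from 2.51 to 1.38 without replicate 2. Untagged depth in replicates 2 and 3 limits every single-region value.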
